A study of Mus musculus with 6 samples.

Results

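Notch signalling was examined in cultured mouse vascular smooth muscle cells through 10 genes: the receptors Notch1, Notch2 and Notch3, the ligands Jag1 and Jag2, the nuclear factors Rbpj and Maml1, and the effectors Hes1, Hey1 and Heyl. They were taken by symbol from the 54532 genes of the deposited table, in which each symbol occurred once, and all 10 were found. RNA sequencing had been done on 6 libraries, 3 labelled Ad-Con (genotype WT, adenoviral vector with a control plasmid) and 3 labelled Ad-PDK4 (the same vector system with an overexpression plasmid for PDK4, the pyruvate dehydrogenase kinase that restrains entry of pyruvate into the citric acid cycle). Per the study's methods the cells were isolated from the abdominal aortas of wild-type mice, used after several passages, and both groups then received the vasoconstrictor angiotensin II, which is absent from the labels. The study calls such samples biological replicates, but neither source says whether a group came from separate animals, so the p-values measure the spread between these libraries, which may be technical.

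Notch receptors are membrane proteins that are activated by ligands on a neighbouring cell. Ligand binding exposes the receptor to cleavage by ADAM proteases and then by gamma-secretase, and the released intracellular domain enters the nucleus, where it joins the DNA-binding protein RBPJ and a Mastermind coactivator to switch on target genes such as the HES and HEY repressors. In the arterial wall Notch3 is the receptor best known from smooth muscle, where Notch signalling is linked to the differentiated state, and Jag1 is a ligand of both endothelium and smooth muscle.

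The libraries held 17588942 to 21861872 reads on genes. Values were given as FPKM, the fragments counted on a gene per kilobase of its length and by a library size that the authors had scaled between libraries. Pdk4 itself was lower under the Ad-PDK4 label, at 7.48 against 10.0 FPKM (-0.42 on the log2 scale, adjusted p = 0.00114 in limma), so overexpression was not seen in the count of the mouse gene, and whether that count can include reads from the plasmid is not known. Each direction below is therefore that of the libraries labelled Ad-PDK4 against those labelled Ad-Con. The smooth muscle identity of the cells was checked with 12 markers, of which 6 had a mean of at least 0.5 FPKM, led by Tpm1, and none was at 0 in all libraries. Their summed level was 241 to 246 FPKM under the Ad-Con label and 204 to 221 FPKM under the Ad-PDK4 label, and the 6 tested did not move together: Acta2 (78.0 ± 0.950 against 36.2 ± 2.40 FPKM) and Tpm2 fell, Cald1 rose (56.0 ± 0.646 against 71.9 ± 2.82 FPKM), and Tpm1, Smtn and Lmod1 were not past the threshold. The contractile markers Myh11 (2 to 10 reads per library), Tagln (4 to 20) and Cnn1 (8 to 30) were scarce in both groups. Des (3 to 16) and Myocd (0 to 5) of the same list were scarce as well. Mylk, at a mean below 0.5 FPKM, was lower under the Ad-PDK4 label (0.756 ± 0.138 against 0.123 ± 0.0239 FPKM). Cnn1 (0.466 ± 0.0643 against 0.247 ± 0.0882 FPKM) and Des (0.186 ± 0.0438 against 0.0468 ± 0.0112 FPKM) were lower as well, with groups apart. The groups of Myh11, Tagln and Myocd overlapped. The smooth muscle identity is thus taken from the study, and these markers do not settle it. Of 8 fibroblast markers 7 passed 0.5 FPKM, led by Col1a1, and their summed level was 1727 to 1882 FPKM under the Ad-Con label and 907 to 995 FPKM under the Ad-PDK4 label. Of the 7 tested, 5 were lower, 1 higher and 1 not past the threshold. That made 85.7% called, beside 42.7% over all genes. Most of the gap in the sum was Col1a1 (1056 ± 42.4 against 435 ± 49.5 FPKM). Dcn was the 1 that rose (90.1 ± 8.20 against 160.6 ± 19.0 FPKM), and Pdgfra was not past the threshold (-0.05 on the log2 scale, adjusted p = 0.544 in limma). Of 10 endothelial markers, which matter here since Notch genes are active in endothelium, 2 passed 0.5 FPKM (Kdr and Egfl7), Tie1, Emcn and Sox17 were at 0, and the summed level was 1.24 to 1.56 against 1.32 to 1.56 FPKM. Within it Kdr was higher (0.536 ± 0.110 against 0.919 ± 0.199 FPKM) and Egfl7 lower (0.706 ± 0.201 against 0.381 ± 0.0119 FPKM). Both had groups apart, but neither was past the threshold (limma adjusted p = 0.0645 and 0.0856). Of 10 macrophage markers only Cd68 passed, with Ptprc, Tyrobp, C1qa and C1qb at 0 and sums of 13.3 to 16.5 against 3.87 to 5.84 FPKM. Most of that sum was Cd68 (14.2 ± 1.78 against 4.24 ± 0.991 FPKM). The low marker Csf1r (0.258 ± 0.143 against 0.640 ± 0.0804 FPKM) went the other way, with groups apart. Of 6 pericyte markers only Pdgfrb passed, with Higd1b at 0 and sums of 44.2 to 50.6 against 63.6 to 67.9 FPKM. That sum was nearly all Pdgfrb (45.4 ± 3.41 against 64.6 ± 2.56 FPKM), and the low markers Rgs5 (0.663 ± 0.0845 against 0.204 ± 0.0593 FPKM) and Cspg4 (0.614 ± 0.0443 against 0.157 ± 0.0573 FPKM) went the other way, with groups apart. The part of these shifts in the Notch results was not tested. In bulk RNA, fewer cells of a type and less RNA per cell cannot be told apart.

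The 3 genes of the set past the threshold in the main test all encode nuclear proteins, at a called share close to that of all genes. Rbpj and Maml1, which form the transcription complex with the cleaved receptor, rose, while Hes1, the target gene with a measurable level, fell. The receptors and Jag1 were not past the threshold in that test, though Notch3 passed it in 3 alternative settings and Jag1 in 1. Jag2 was too low for the main test, with groups apart upward, and Hey1 and Heyl were at or near 0 reads. Of the 10 genes, 7 had a mean of at least 0.5 FPKM and entered limma on log2(FPKM + 0.1), and 3 of these 7 had an adjusted p below 0.05, which is 42.9%. Over all 13423 genes tested 42.7% were called, so the share among the Notch genes was close to that of the table as a whole. The 2 rises stand against a background of 21.8% of genes called higher and the 1 fall against 20.8% called lower. None of the 7 also reached a 2-fold change, which 6.63% of all genes did (3.95% higher and 2.68% lower). The median log2 fold change of the 7 was -0.07 and their median size 0.33, beside -0.003 and 0.25 over all genes.

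**Figure D1:**
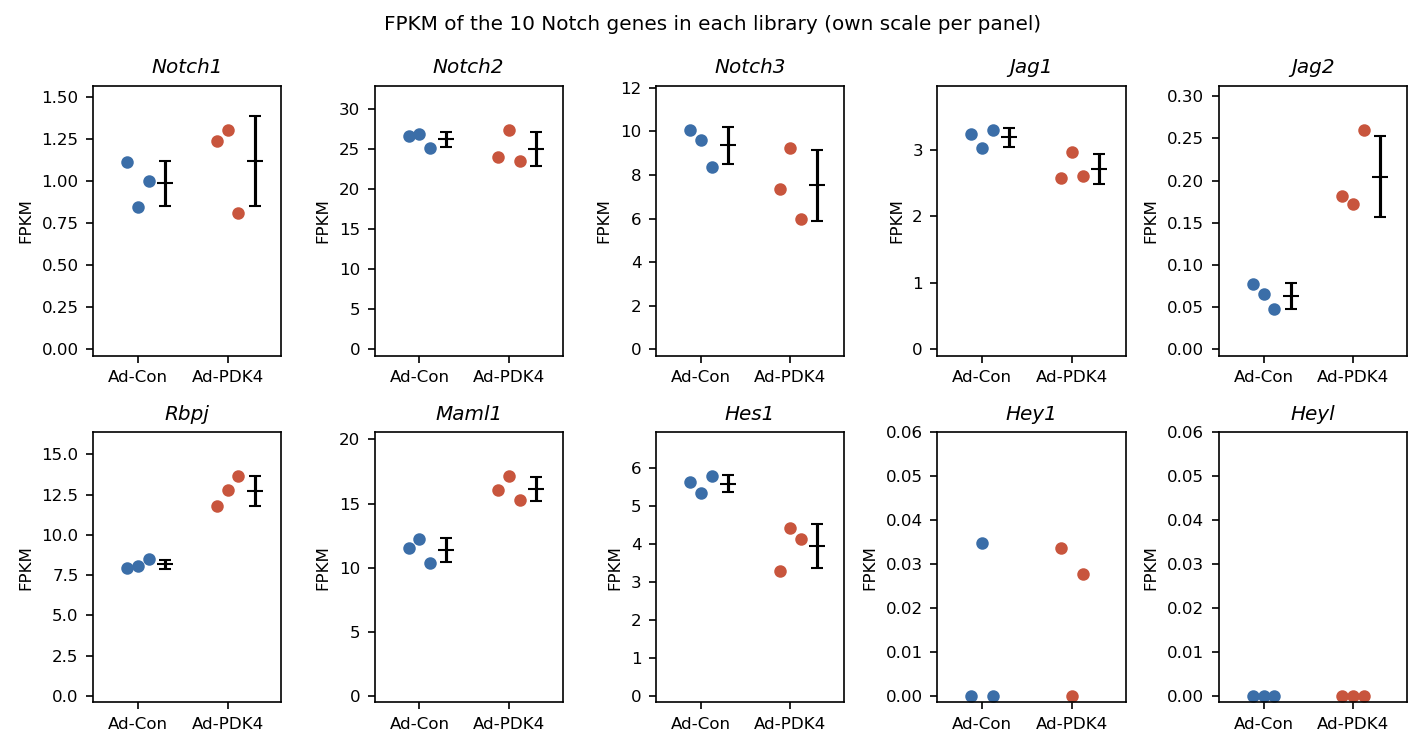
FPKM (y axis, own scale in each panel, starting at 0) of the 10 Notch genes in the 3 Ad-Con and the 3 Ad-PDK4 libraries, 1 point per library, with the mean ± SD beside the points except for Hey1 and Heyl, whose counts were at or near 0. The Ad-PDK4 points lie above all Ad-Con points for Rbpj, Maml1 and Jag2 and below them for Hes1 and Jag1. For the 3 receptors the ranges of the groups overlap.

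Rbpj (ENSMUSG00000039191, chromosome 5, 53466152 to 53657362, plus strand) encodes the DNA-binding protein through which all mammalian Notch receptors act, and which represses the same targets when no receptor fragment is bound. Its 300-base promoter window is printed here because Rbpj had the largest change of the 7 genes tested, together with that of Maml1, the other gene that rose. In each, 250 bases lie before the start site and 50 after it (RefSeq, GRCm38.p6). Capitals mark matches to TGGGAA, the core of the RBPJ binding site, on either strand.
Rbpj, chr5:53590096-53590395, plus strand: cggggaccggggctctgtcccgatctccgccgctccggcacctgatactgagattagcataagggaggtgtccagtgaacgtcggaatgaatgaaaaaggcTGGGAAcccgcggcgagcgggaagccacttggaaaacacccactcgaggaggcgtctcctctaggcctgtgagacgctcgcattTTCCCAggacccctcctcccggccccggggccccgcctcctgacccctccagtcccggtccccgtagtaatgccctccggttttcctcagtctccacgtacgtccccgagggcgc
Maml1, chr11:50292287-50292586, minus strand: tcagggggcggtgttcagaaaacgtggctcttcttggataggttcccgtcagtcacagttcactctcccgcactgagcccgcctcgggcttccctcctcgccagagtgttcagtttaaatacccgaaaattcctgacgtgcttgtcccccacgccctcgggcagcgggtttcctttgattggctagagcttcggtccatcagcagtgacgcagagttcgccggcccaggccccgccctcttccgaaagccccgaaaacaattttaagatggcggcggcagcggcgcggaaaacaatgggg

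The Rbpj window held 2 matches, one starting 149 bases before the start site and, on the opposite strand, one starting 65 bases before it. The Maml1 window held none. Promoter sequences were matched for 7 of the 10 genes (Notch1, Notch2, Notch3, Jag1, Jag2, Rbpj and Maml1, with 2 overlapping windows for Rbpj), and only Rbpj had a match, the one on the opposite strand lying in both of its windows. Among all 32851 promoter windows of the same length, 25.6% held TGGGAA on either strand, so a match is common by itself. The longer GTGGGAA, which contains it, was found in 6.38% of all windows and in none of these 8. A match describes letters in the window and not a bound site. The Rbpj gene has several annotated starts, and gene-level counts do not tell which was in use.

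Rbpj had 7.93, 8.09 and 8.49 FPKM in Ad-Con replicates 1 to 3 and 11.8, 12.8 and 13.6 FPKM in Ad-PDK4 replicates 1 to 3, on 1812 to 2059 and 2739 to 3840 reads. Every library labelled Ad-PDK4 lay above every Ad-Con library, and the gap was wider than the spread within either group. The mean rose from 8.17 ± 0.285 to 12.7 ± 0.916 FPKM (n = 3 per group), a ratio of 1.56, and the fitted log2 fold change was 0.63 (SE 0.07, adjusted p = 0.000253 in limma). Rbpj has processed pseudogenes, which are intronless copies elsewhere in the genome, and 23.2% of the 50-base words of its longest transcript occur in them. How reads with several matches were counted is not given in the sources used here, so its count is uncertain. Rbpj-ps3 itself had 14 to 49 reads per library and Rbpj-ps1 had 0.

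Maml1 (ENSMUSG00000050567, chromosome 11, 50255634 to 50292311, minus strand) encodes a Mastermind coactivator that locks the receptor fragment onto RBPJ and recruits histone acetyltransferases. It had 11.5, 12.2 and 10.4 FPKM in the Ad-Con libraries and 16.1, 17.1 and 15.2 FPKM in the Ad-PDK4 libraries, on 1039 to 1862 reads. The groups were again apart. The mean rose from 11.4 ± 0.937 to 16.2 ± 0.935 FPKM (n = 3), or 0.50 as a log2 fold change (SE 0.08, adjusted p = 0.00136 in limma). The ratio of Maml1 to Rbpj within a library was 1.22 to 1.51 under the Ad-Con label and 1.12 to 1.36 under the Ad-PDK4 label, ranges that overlap.

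Hes1 (ENSMUSG00000022528, chromosome 16, 30064384 to 30067796, plus strand), a basic helix-loop-helix repressor and the standard readout of Notch activity, moved the other way. It had 5.62, 5.34 and 5.77 FPKM in the Ad-Con libraries and 3.29, 4.40 and 4.13 FPKM in the Ad-PDK4 libraries, on 191 to 233 against 122 to 186 reads. The highest Ad-PDK4 library stayed below the lowest Ad-Con library. The mean fell from 5.58 ± 0.217 to 3.94 ± 0.580 FPKM (n = 3), a ratio of 0.707, and the fitted log2 fold change was -0.50 (SE 0.11, adjusted p = 0.00864 in limma). Without Ad-PDK4 replicate 1, the lowest library, the log2 fold change was -0.38 and still past the threshold. Within a library, the ratio of Rbpj to Hes1 FPKM lay between 1.41 and 1.52 under the Ad-Con label and between 2.90 and 3.59 under the Ad-PDK4 label.

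The other effectors were not measurable. Hey1 (ENSMUSG00000040289, chromosome 3, 8663359 to 8667256), a HES-related repressor of cardiovascular development, had 0, 2 and 0 reads in the Ad-Con libraries and 2, 0 and 2 in the Ad-PDK4 libraries, and 3 reads in its least sensitive library would be 0.0525 FPKM. Heyl (ENSMUSG00000032744, chromosome 4, 123233556 to 123249875), a target of Notch3 in smooth muscle, had 0 reads in all 6 libraries, which allows up to 3 reads, or at most 0.0335 FPKM in any library. These limits cover counting error only. A difference between the groups was not detectable for either gene at this depth.

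**Figure D2:**
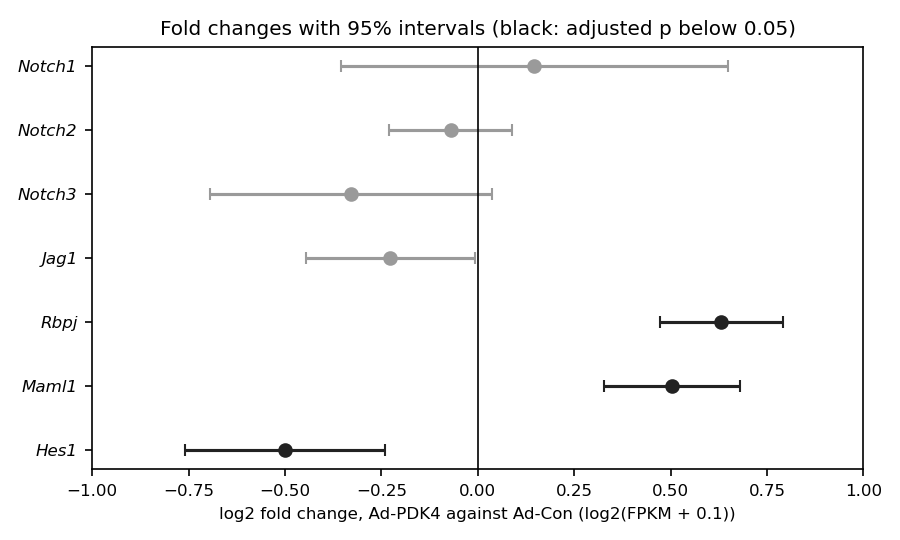
Log2 fold change on the log2(FPKM + 0.1) scale (x axis) of the 7 Notch genes tested, as points with 95% intervals from limma over 3 libraries per group, in black where the adjusted p was below 0.05. Rbpj (0.63) and Maml1 (0.50) lie above 0 and Hes1 (-0.50) below it, while the intervals of Notch1, Notch2 and Notch3 cross 0.

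Notch2 was the main receptor transcript in these cells. Notch2 (ENSMUSG00000027878, chromosome 3, 98013527 to 98150361, plus strand) had 26.7, 26.9 and 25.2 FPKM in the Ad-Con libraries and 24.1, 27.4 and 23.6 FPKM in the Ad-PDK4 libraries, on 4732 to 5859 reads. The highest library of all was an Ad-PDK4 one, and the groups overlapped. The means were 26.3 ± 0.965 and 25.1 ± 2.09 FPKM (n = 3), a log2 fold change of -0.07 with a 95% interval of -0.23 to 0.09 (limma adjusted p = 0.450). Of the summed FPKM of Notch1, Notch2 and Notch3, Notch2 took 70.5% to 72.8% under the Ad-Con label and 72.3% to 77.7% under the Ad-PDK4 label.

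Notch3 (ENSMUSG00000038146, chromosome 17, 32120820 to 32166880, minus strand) took 24.3% to 26.6% of that sum under the Ad-Con label and 19.6% to 24.3% under the Ad-PDK4 label. It had 10.1, 9.60 and 8.39 FPKM in the Ad-Con libraries and 7.36, 9.23 and 5.97 FPKM in the Ad-PDK4 libraries, on 1060 to 1648 reads. Ad-PDK4 replicate 2 lay inside the Ad-Con range and the other two below it. The means were 9.35 ± 0.867 and 7.52 ± 1.64 FPKM (n = 3), a log2 fold change of -0.33 with a 95% interval of -0.69 to 0.04 (limma adjusted p = 0.130). The call turned on the model and on 1 library: Notch3 was past the threshold in limma-voom on the recovered reads (-0.35, adjusted p = 0.0166) and without Ad-PDK4 replicate 2 (-0.49, limma adjusted p = 0.0175), and its value without Ad-PDK4 replicate 3 was -0.18 (limma adjusted p = 0.292).

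Notch1 (ENSMUSG00000026923, chromosome 2, 26457903 to 26516663, minus strand) was the lowest of the 3 receptors. It had 1.11, 0.844 and 1.004 FPKM in the Ad-Con libraries and 1.24, 1.30 and 0.811 FPKM in the Ad-PDK4 libraries, on 211 to 325 reads, so the Ad-PDK4 libraries held both the highest and the lowest value. The log2 fold change was 0.15 with a 95% interval of -0.35 to 0.65 (limma adjusted p = 0.622), which leaves room for a change of either sign. Of its longest transcript 13.7% of the 50-base words also occur in 2 overlapping transcripts of the opposite strand, 0610009E02Rik and Gm13568, which had at most 16 reads in any library. Whether counting used strand is not given in the sources used here.

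Of the ligands, only Jag1 was well above the detection limit, at a level below Notch2 and Notch3 and above Notch1. Jag1 (ENSMUSG00000027276, chromosome 2, 137081456 to 137116644, minus strand) had 3.24, 3.03 and 3.30 FPKM in the Ad-Con libraries and 2.57, 2.97 and 2.60 FPKM in the Ad-PDK4 libraries, on 273 to 384 reads. The groups did not overlap, but Ad-PDK4 replicate 2 came close to the lowest Ad-Con library. The means were 3.19 ± 0.143 and 2.72 ± 0.221 FPKM (n = 3), a log2 fold change of -0.23 with a 95% interval of -0.44 to -0.01, an unadjusted p of 0.0436 and a limma adjusted p of 0.0883. Without Ad-PDK4 replicate 2 the value was -0.29 (limma adjusted p = 0.0442). Counting Jag1, the groups were apart for 4 of the 7 genes tested (57.1%), where 54.3% of all genes were. Rbpj and Maml1 were apart upward, as 27.8% of all genes were, and Jag1 and Hes1 downward, as 26.5% were.

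Jag2 (ENSMUSG00000002799, chromosome 12, 112907819 to 112929776, minus strand), the second Jagged ligand, was close to the detection limit and fell below the filter. It had 11, 8 and 6 reads in the Ad-Con libraries and 23, 21 and 40 in the Ad-PDK4 libraries, or 0.0635 ± 0.0151 against 0.205 ± 0.0482 FPKM (n = 3), with no overlap. The ratio of means was 3.22. When the filter was dropped the log2 fold change was 0.89 on the log2(FPKM + 0.1) scale (limma adjusted p = 0.0784), a scale on which the pseudocount of 0.1 exceeds the control level. In limma-voom on the recovered reads without the filter, an analysis added after the values had been seen, it was 1.64 (adjusted p = 0.00846). Jag1 still exceeded Jag2 in every library, by 41.7-fold to 69.5-fold under the Ad-Con label and by 10.0-fold to 17.2-fold under the Ad-PDK4 label.

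By FPKM the order of levels in the Ad-Con libraries was Notch2, Maml1, Notch3, Rbpj, Hes1, Jag1, Notch1, Jag2, Hey1 and Heyl. The ranges of neighbours were apart except for Notch3 and Rbpj, where Notch3 was above in 2 of 3 libraries, and for Hey1 and Heyl. In the Ad-PDK4 libraries Rbpj stood above Notch3 in 3 of 3 libraries, with ranges apart, and the order was otherwise the same. The ratio of Rbpj to Notch3 was 0.788 to 1.01 under the Ad-Con label and 1.38 to 2.29 under the Ad-PDK4 label. The place of Rbpj depends on the gene length behind the FPKM. The table used 12750 bases for Rbpj, while its longest protein-coding transcript in GENCODE M21 has 5485, a ratio of 2.32 that was 1.5 for Notch1, 1.39 for Hes1 and at most 1.36 for the other 7 genes. With transcript lengths in place of the table's, Rbpj would stand at 19.0 FPKM under the Ad-Con label and 29.6 under the Ad-PDK4 label, above Notch2 (25.7) in the second case. Differences between the groups are not touched by this choice beyond the effect of the pseudocount.

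**Figure D3:**
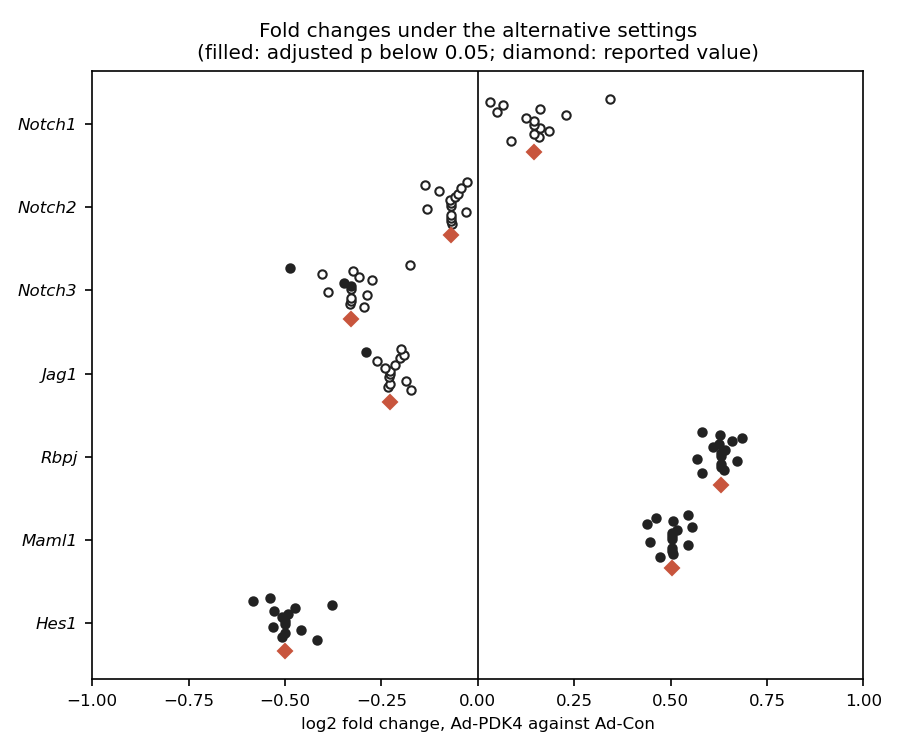
Log2 fold change (x axis) of the 7 Notch genes tested under each alternative setting (circles, filled where the adjusted p was below 0.05) and as reported (diamonds). All circles of Rbpj, Maml1 and Hes1 are filled, all of Notch1 and Notch2 are open, and Notch3 has 3 filled circles and Jag1 1.

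The rest of the pathway was compared through 60 further genes in 6 lists, of which 47 passed the filter. Of these 47, 13 were higher, 11 lower and 23 not past an adjusted p of 0.05, with a median log2 fold change of 0.02. The called share was 51.1%, beside 42.7% over all genes. The largest changes were in the non-canonical ligands Dlk2 and Dlk1.

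Among 6 other receptors and ligands, Notch4 (14 to 35 reads per library), Dll1 (24 to 52), Dll3 (0 to 4) and Dll4 (0 to 5) fell below the filter, so Jag1 was the highest canonical ligand in these cells. The 2 tested were Dlk1 and Dlk2, Delta-like membrane proteins that lack the domain by which canonical ligands engage Notch. Dlk1 had 35.0, 33.3 and 37.5 FPKM in the Ad-Con libraries and 12.02, 12.9 and 10.5 FPKM in the Ad-PDK4 libraries, or -1.57 as a log2 fold change (SE 0.08, adjusted p = 5.40e-06 in limma). Dlk2 had 0.674, 0.566 and 0.444 FPKM against 2.96, 2.60 and 2.74 FPKM, on 17 to 29 and 96 to 128 reads, or 2.13 as a log2 fold change (SE 0.17, adjusted p = 4.78e-05 in limma). Both were far apart between the groups, with Dlk1 remaining the higher of the pair.

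Of 6 other HES and HEY genes and direct targets only Hes6 passed the filter, at 29.3 ± 1.93 against 23.4 ± 2.22 FPKM (n = 3), or -0.32 as a log2 fold change (adjusted p = 0.0148 in limma). Hes6 is an atypical family member that antagonises Hes1. Hes5 was at 0 in all libraries, and Hey2 (0 to 7 reads), Hes2 (0 to 7), Hes7 (1 to 6) and Nrarp (0 to 6) were near it.

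Of 16 other coactivators and corepressors of RBPJ 15 were tested, with 5 higher, 5 lower and 5 not past the threshold, a called share of 66.7% beside 42.7% over all genes (21.8% higher and 20.8% lower). The Mastermind genes split: Maml2 rose like Maml1, from 7.77 ± 0.257 to 12.4 ± 0.521 FPKM (0.67 on the log2 scale, adjusted p = 9.28e-05 in limma), and Maml3 fell from 3.07 ± 0.271 to 1.88 ± 0.161 FPKM (-0.68, limma adjusted p = 0.00203). The other rises were in Kat2b (0.36), Snw1 (0.34), Ep300 (0.27) and Kat2a (0.26), which are acetyltransferases apart from the adaptor Snw1. The other falls were in the corepressor-side genes Fhl1 (-0.44), Hdac1 (-0.37), Hdac2 (-0.31) and Ctbp1 (-0.18). The large corepressors Ncor1 (0.06) and Spen (0.19) were not past the threshold. These genes other than Maml2 and Maml3 were named after their values had been seen, and many of them serve transcription factors besides RBPJ.

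Of 10 genes of receptor cleavage all were tested, with 3 higher, 2 lower and 5 not past the threshold, so 50% were called beside 42.7% over all genes. Adam17, a protease that can cleave the bound receptor, rose by 0.32 (14.6 ± 0.468 to 18.3 ± 1.33 FPKM, limma adjusted p = 0.00557), and Adam10, the protease mainly used after ligand binding, had -0.12 (limma adjusted p = 0.0998). Within gamma-secretase, Aph1b fell by 1.06 on the log2 scale, from 6.78 ± 0.547 to 3.22 ± 0.554 FPKM (limma adjusted p = 0.000491), while its more abundant paralogue Aph1a had -0.12 (limma adjusted p = 0.214).

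None of the 4 tested genes of receptor glycosylation (Pofut1, Poglut1, Rfng and Lfng) was past the threshold in limma, with log2 fold changes of -0.13 to 0.36. So 0% of these 4 were called, beside 42.7% over all genes, and 0 of them had an unadjusted p below 0.05 in limma or in limma-voom. Of 17 genes of ubiquitination and endocytosis 15 were tested, with 4 higher, 2 lower and 9 not past it, so 40% were called beside 42.7% over all genes. The largest rise was in Neurl1a, a ubiquitin ligase for Notch ligands (1.504 ± 0.0283 to 2.58 ± 0.502 FPKM, 0.72 on the log2 scale, adjusted p = 0.00568 in limma), and the largest fall in Nedd4, a ubiquitin ligase with many substrates (265 ± 5.26 to 188 ± 7.58 FPKM, -0.49, limma adjusted p = 0.000133). Mib1, the ligase that readies Jagged and Delta ligands for signalling, had -0.04 (limma adjusted p = 0.618).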

How the data were processed

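RNA-seq had been done on 6 libraries, which were grouped by their treatment labels. The deposited values were FPKM of single libraries, made by the authors with no pooling. The submitters' processing notes name, without roles, CASAVA 1.8, fastp, HISAT2 2.0.5, featureCounts 1.5.0-p3, the authors' DESeq2 1.20.0 and GRCm39. The coordinates were instead those of GRCm38, since 54409 identifiers were found in GENCODE M21 and 98.3% of these had identical positions, 9 of the 10 Notch genes among them (the end of Notch3 differed). Multiplied by gene length, 100% of non-zero FPKM values in a library were whole multiples of 1 step (tolerance 0.01), and these multiples are called reads. Replicates of a group differed beyond sampling noise (chi-square per degree of freedom 4.17 to 11.7).

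log2(FPKM + 0.1) was compared between the groups with limma 3.58.1 in R 4.3.3 (trend and robust moderation, no covariates), and p-values were adjusted by Benjamini-Hochberg over the 13423 genes with a mean of at least 0.5 FPKM. Each adjusted p is from limma or, where named, limma-voom, with 0.05 as the threshold. The code was tested on simulated data. The pseudocount understates changes of low genes. Other pseudocounts, filters, scalings and models, a replicate block and leaving out each library were tried. The Notch genes and the lists were chosen with earlier results of these data known. By rule the text names all 10 Notch genes, Pdk4, in each pathway list the called genes with the largest rise and fall, and in each marker list the highest gene and those at 0 throughout. Other listed genes given by name (among the markers Acta2, Tpm2, Cald1, Smtn, Lmod1, Myh11, Tagln, Cnn1, Des, Myocd, Mylk, Egfl7, Csf1r, Dcn, Pdgfra, Rgs5 and Cspg4) were chosen after their values were seen. Some genes of the lists are counted but not reported here by name.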

Additional observations from a re-analysis of the deposited data

How the results depend on the processing

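Across 15 alternatives, 244 of 248 values of single genes kept their direction and their side of the threshold, and none changed direction. Rbpj ranged from 0.57 to 0.69, Maml1 from 0.44 to 0.56 and Hes1 from -0.58 to -0.38, all past the threshold, Hes1 not being tested at a minimum mean of 5 FPKM. The exceptions were Notch3 and Jag1, with the values given above. 2 Notch genes rose in every alternative. Those called lower numbered 0 with a minimum mean of 5 FPKM (4 genes tested), 2 in limma-voom, and 1 to 3 when each library was left out in turn (3 without Ad-PDK4 replicate 2). With the replicate number as a block the count was 2, since Notch3 (-0.33) then had a limma adjusted p of 0.0458. The block left 2759 genes called higher and 2626 lower over the whole table. The numbers were not taken as pairs, because deviations of same-numbered libraries correlated at -0.046 to -0.001. Over all genes, the 530 called higher with a 2-fold change became 258 at the 5 FPKM minimum, and the 360 called lower became 153 with a pseudocount of 1 and 114 at that minimum. Without 1 library, 2324 to 2700 genes were called higher and 2167 to 2694 lower (505 to 544 and 341 to 379 with a 2-fold change). The planned edgeR and DESeq2 fits were not run because the deposited unit was FPKM. With 3 libraries a group, depth limits Jag2, Hey1 and Heyl.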
